A study of Arabidopsis thaliana with 3 samples.

Results

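Sugar transporter genes of Arabidopsis thaliana were compared between gip1 gip2 mutant seedlings and wild type. The 8 genes were chosen by locus code, out of 30271 genes in the deposited tables, and all 8 passed the filter on low values. They are the hexose importers STP1 (AT1G11260), STP4 (AT3G19930) and STP13 (AT5G26340), the sucrose importers SUC1 (AT1G71880) and SUC2 (AT1G22710), the sucrose exporters SWEET11 (AT3G48740) and SWEET12 (AT5G23660), and the vacuolar glucose transporter ERDL6 (AT1G75220). The GIP proteins belong to the gamma-tubulin complexes, from which microtubules start to grow. T34 and T12 were populations from a cross of the gip1 line GABI_213D01 with the gip2 line FLAG_36406, and WT was a cross of the Ws and Col-0 accessions. Whole seedlings aged 9 days were used in all groups, with 3 libraries each of stranded total RNA depleted of ribosomal RNA. The design text orders the populations by severity of their root growth defect, and T34 is taken here as the stronger. Nothing in the labels says how the mixed background of the crosses was distributed over the populations, or that the libraries came from separately grown plants, so p-values measure only the spread between these libraries.

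Plants move carbon from leaves to roots and growing tissue mostly as sucrose. In Arabidopsis leaves, SWEET11 and SWEET12 release sucrose from phloem parenchyma cells into the cell wall, and SUC2 takes it up into companion cells together with protons. Where sucrose is split in the wall by invertase, STP proteins take up the resulting hexoses with protons. Inside the cell, sugars are stored in and released from the vacuole, and ERDL6 exports glucose across the vacuolar membrane.

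The libraries held 20963358 to 30438933 reads in all. With ribosomal RNA and organelle genes left out, 10054220 to 11318324 reads remained in T34, 13120769 to 15270092 in T12, and 12336970, 645093 and 6282456 in WT replicates 1, 2 and 3. Ribosomal RNA took 36.68 to 40.48% of reads in T34, 0.19 to 1.07% in T12, and 18.38, 77.27 and 38.56% in WT, and its part in the results was not tested. A read of WT replicate 2 stood for 11.687 normalized counts, and its values rest on 21 (STP13) to 425 (STP1) reads per gene. The labels list library 7 under both WT and T34 and library 6 under no group, and they were used as WT replicate 1 and T34 replicate 3 from the make-up of the deposited tables. GIP1 is not analysed here, and GIP2 had 2, 3 and 5 reads in T34, 1, 1 and 1 in T12 and 4, 1 and 0 in WT, too few to check the labels. Values below are normalized counts, meaning read counts scaled by the authors' size factor of each library. Calls of higher or lower used limma's test over 20871 genes and an adjusted p (Benjamini-Hochberg) below 0.05.

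Both mutant populations differed from WT in 4 of the 8 genes, and in the same 4. SUC1 and STP13 rose, and STP1 and SWEET12 fell. STP4, SUC2, SWEET11 and ERDL6 did not pass the test in either population. The background was high: in T34 against WT 45.2% of all tested genes were called, 25.2% higher and 20% lower, and in T12 against WT 40.2% were called, 23.1% higher and 17.0% lower. The 4 of 8 called is thus a share near the background. Without overlap between the groups were 2 genes higher and 2 lower of the 8 in T34, where 56.0% of all tested genes did not overlap WT, 30.9% higher and 25.1% lower. In T12 they were 3 higher and 2 lower, where 51.3% did not overlap WT, 28.3% higher and 23.0% lower. With upper quartile scaling in place of the authors' size factors, the split over all genes was 4448 higher and 5421 lower in T34 (5262 and 4166 with the authors' factors) and 4148 higher and 4776 lower in T12 (4827 and 3555). The median log2 fold change of all tested genes was 0.06 in both comparisons and moved by -0.14 in T34 and -0.12 in T12 under that scaling, which is small beside the changes of the 4 genes called. The median over the 8 genes was 0.02 in T34 and 0.11 in T12. Both comparisons share the WT libraries, so that the 2 sets of values are not independent.

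**Figure D1:**
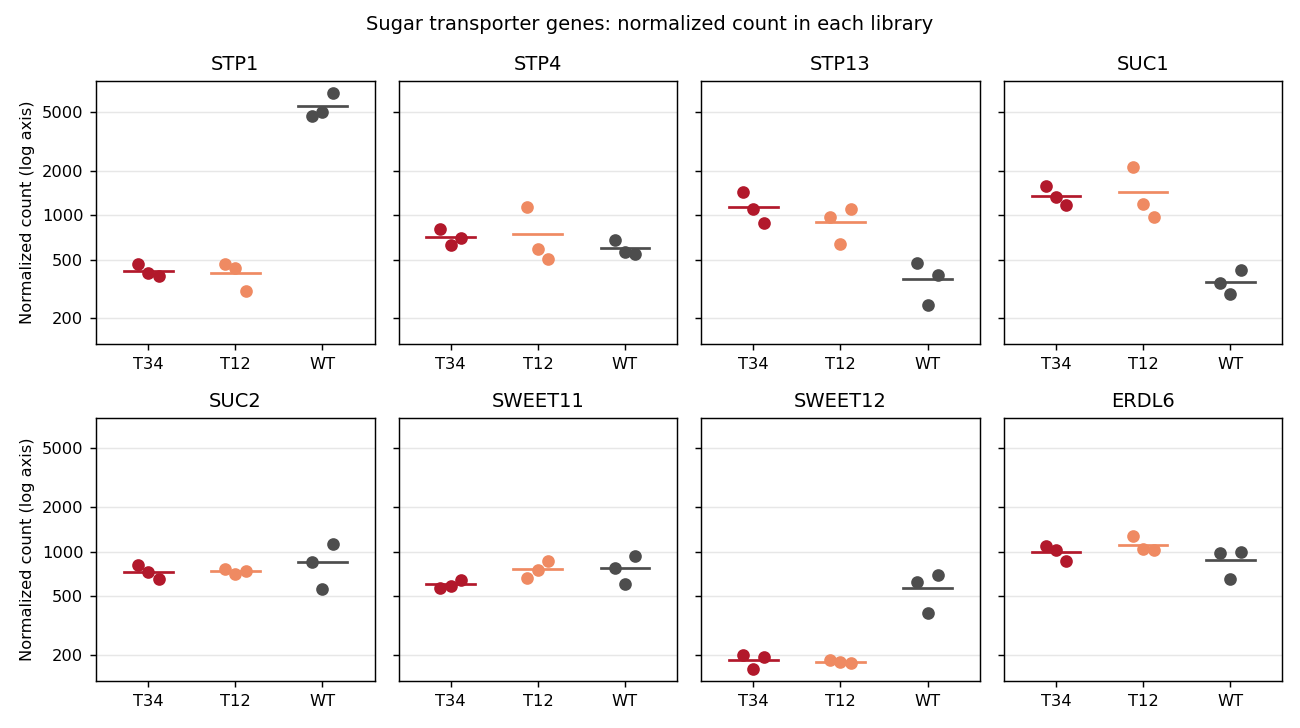
Normalized counts (log axis) of the 8 genes in each library of T34, T12 and WT; points are libraries and bars are group means (n = 3). STP1 and SWEET12 lie lower, and STP13 and SUC1 higher, in every T34 and T12 library than in every WT library, while the groups overlap for STP4 and SUC2.

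STP1 encodes a plasma-membrane proton-hexose symporter of broad expression, known from guard cells and seedlings. It lies at chr1:3777236-3780823 on the plus strand of TAIR10.1, with 4 exons and a longest transcript of 2483 bases. STP1 had 468.1, 406.4 and 386.8 normalized counts in T34 and 463.4, 441.8 and 306.2 in T12, against 4685, 4967 and 6682 in WT. Every mutant library was far below every WT library, with no overlap. The mean was 420 ± 42.4 in T34, 404 ± 85.2 in T12 and 5445 ± 1081 in WT (SD, n = 3 each). In T34, STP1 fell by 3.68 on the log2 scale (SE 0.19, 95% interval -4.10 to -3.26, limma adjusted p = 2.39e-06), a level 12.8-fold lower than in WT. In T12 it fell by 3.76 (SE 0.19, 95% interval -4.18 to -3.33, limma adjusted p = 2.21e-06), 13.5-fold lower. In whole seedlings, fewer cells of a type and less RNA per cell cannot be told apart.

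STP1 overlaps AT1G11270, a gene on the opposite strand, and 276 of the 2434 windows of 50 bases in the STP1 transcript (11.34%) occur in another transcript too, 265 of them in AT1G11270. Whether counting used strand is not given in the sources used here. AT1G11270 had 199, 223 and 201 normalized counts in T34, 112, 135 and 156 in T12 and 86.0, 93.5 and 80.3 in WT. All mutant libraries were above all WT libraries for AT1G11270, and its part in the STP1 values was not tested.

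The 250 bases before the annotated start of STP1, chr1:3776986-3777235 on the plus strand, are shown because this gene had the largest change of the 8. The capitals mark TGGATA, the reverse complement of the TATCCA element, which is known from sugar-regulated cereal promoters. It lies 51 to 46 bases before the start.
STP1: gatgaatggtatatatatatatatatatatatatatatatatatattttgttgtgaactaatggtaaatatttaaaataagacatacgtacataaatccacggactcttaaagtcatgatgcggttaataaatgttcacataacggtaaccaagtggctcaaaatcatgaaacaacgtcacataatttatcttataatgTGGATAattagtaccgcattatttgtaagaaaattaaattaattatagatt
Of 27443 promoters of the same length, 13.64% hold a TATCCA element on either strand. No G box (CACGTG), W box (TTGACC or TTGACT) or evening element (AAAATATCT) was in this window. A match is a description of the letters and no test of binding.

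STP13, annotated as MSS1, is a hexose symporter that pathogen and stress signals are known to induce, and it lies at chr5:9243398-9247540 on the minus strand. STP13 had 1429, 1100 and 878.4 normalized counts in T34, 972.4, 635.5 and 1103 in T12, and 473.5, 245.4 and 391.3 in WT. Every mutant library was above every WT library. STP13 rose in T34 by 1.64 on the log2 scale (SE 0.29, 95% interval 0.99 to 2.29, limma adjusted p = 0.00159), a level 3.11-fold higher. In T12 it rose by 1.30 (95% interval 0.65 to 1.95, limma adjusted p = 0.0064), 2.46-fold higher. The WT replicate 2 value, 245 normalized counts, rests on 21 reads, with an exact Poisson 95% interval of 152 to 375 for counting error only.

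STP4 is a hexose symporter of sink tissues such as root tips, with known responses to wounding and pathogens, and it lies at chr3:6934568-6937197 on the plus strand. STP4 had 804.2, 628.3 and 696.7 normalized counts in T34, 1133, 589.9 and 508.1 in T12, and 683.0, 561.0 and 542.9 in WT. The 3 groups overlapped, and T12 replicate 1 was the highest library. The log2 fold change was 0.25 in T34 against WT (95% interval -0.35 to 0.85, limma adjusted p = 0.462) and 0.24 in T12 against WT (95% interval -0.36 to 0.83, limma adjusted p = 0.506). The intervals do not reach the estimated change of STP1 or STP13. In T12, though, the STP4 interval overlaps that of STP13 (0.65 to 1.95).

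SUC1 is a proton-sucrose symporter known from pollen, roots and trichomes, and SUC2 is the companion-cell symporter that loads the phloem. SUC1 lies at chr1:27054030-27056464 on the plus strand and SUC2 at chr1:8030587-8033156 on the minus strand. SUC1 had 1574, 1319 and 1161 normalized counts in T34, 2118, 1181 and 974.1 in T12, and 348.2, 292.2 and 424.4 in WT. All mutant libraries were above all WT libraries, with T12 replicate 1 the highest. SUC1 rose in T34 by 1.93 on the log2 scale (SE 0.27, 95% interval 1.32 to 2.54, limma adjusted p = 0.000424), 3.81-fold. In T12 it rose by 1.94 (95% interval 1.33 to 2.55, limma adjusted p = 0.000515), 3.83-fold.

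SUC2 did not pass the test in either population. It had 818.4, 725.4 and 649.8 normalized counts in T34, 762.4, 707.3 and 745.3 in T12, and 853.1, 561.0 and 1136 in WT. The mutant libraries lay within the range of the WT libraries. The log2 fold change was -0.16 in T34 (SE 0.22, 95% interval -0.66 to 0.33, limma adjusted p = 0.567) and -0.15 in T12 (95% interval -0.64 to 0.35, limma adjusted p = 0.626). Without WT replicate 2, whose SUC2 value rests on 48 reads, it was -0.43 in T34 and -0.42 in T12, and passed the test (limma adjusted p = 0.0266 in T34 and 0.0348 in T12).

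The upstream sequences of SUC1 (chr1:27053780-27054029, plus strand) and SUC2 (chr1:8033157-8033406, minus strand) are shown because the 2 genes differ in how they changed and both carry a G box, CACGTG, in capitals. It lies 12 to 7 bases before the start in SUC1 and 42 to 37 bases before it in SUC2.
SUC1: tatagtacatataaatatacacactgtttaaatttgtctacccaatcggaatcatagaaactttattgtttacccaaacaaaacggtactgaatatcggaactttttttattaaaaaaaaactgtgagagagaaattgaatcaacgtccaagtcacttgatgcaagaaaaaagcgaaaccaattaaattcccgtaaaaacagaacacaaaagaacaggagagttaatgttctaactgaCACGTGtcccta
SUC2: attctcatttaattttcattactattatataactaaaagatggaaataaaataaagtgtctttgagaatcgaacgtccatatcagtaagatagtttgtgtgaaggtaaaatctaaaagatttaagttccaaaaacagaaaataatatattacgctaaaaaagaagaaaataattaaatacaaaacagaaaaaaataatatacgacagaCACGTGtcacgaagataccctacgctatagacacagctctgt
A G box is held by 6.49% of all promoters of this length. The G box was the only searched motif found in either window.

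SWEET11 and SWEET12 are paralogous sucrose exporters of phloem parenchyma cells. SWEET11 lies at chr3:18052466-18054832 and SWEET12 at chr5:7971647-7973995, both on the minus strand with 6 exons. SWEET12 had 200.1, 161.4 and 195.1 normalized counts in T34, 184.9, 178.9 and 178.3 in T12, and 628.9, 385.7 and 695.9 in WT. Every mutant library was below every WT library. In T34, SWEET12 fell by 1.58 on the log2 scale (SE 0.21, 95% interval -2.04 to -1.11, limma adjusted p = 0.000286), 2.98-fold lower. In T12 it fell by 1.61 (95% interval -2.07 to -1.14, limma adjusted p = 0.000317), 3.05-fold lower. The WT replicate 2 value of 386 rests on 33 reads and has an exact Poisson 95% interval of 265 to 542, which lies above all 6 mutant values.

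SWEET11 had 572.5, 588.7 and 644.7 normalized counts in T34, 664.8, 749.6 and 868.1 in T12, and 775.7, 607.7 and 930.4 in WT. T34 overlapped WT through WT replicate 2, and T12 lay within the WT range. The log2 fold change was -0.34 in T34 (SE 0.16, 95% interval -0.70 to 0.03, limma adjusted p = 0.119) and -0.01 in T12 (95% interval -0.37 to 0.36, limma adjusted p = 0.978). The T34 difference passed the test in 6 of 19 alternatives. They include edgeR's quasi-likelihood test (-0.42, adjusted p = 0.0449), DESeq2 (-0.42, adjusted p = 0.0388) and the fit without WT replicate 2 (-0.50, limma adjusted p = 0.0114). The authors' deposited table gives -0.40 with an adjusted p of 0.0152 for SWEET11 in T34.

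The upstream sequences of SWEET11 (chr3:18054833-18055082, minus strand) and SWEET12 (chr5:7973996-7974245, minus strand) are shown for the same reason as the sucrose symporters. None of the 4 motifs was found in either, so there are no capitals.
SWEET11: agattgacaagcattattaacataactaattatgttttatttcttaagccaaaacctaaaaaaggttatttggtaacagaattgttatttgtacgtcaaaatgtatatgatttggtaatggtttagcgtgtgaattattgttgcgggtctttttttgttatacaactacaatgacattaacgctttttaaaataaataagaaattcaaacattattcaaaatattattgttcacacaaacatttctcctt
SWEET12: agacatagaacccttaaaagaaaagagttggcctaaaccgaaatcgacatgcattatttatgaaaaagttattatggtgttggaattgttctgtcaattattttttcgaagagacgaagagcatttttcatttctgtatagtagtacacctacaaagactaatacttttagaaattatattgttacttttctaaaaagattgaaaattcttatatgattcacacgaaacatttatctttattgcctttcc
A window with none of these letters says nothing of the factors that act there.

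ERDL6 lies at chr1:28229026-28233134 on the minus strand with 17 exons, and overlaps AT1G75210 on the other strand. ERDL6 had 1097, 1032 and 867.5 normalized counts in T34, 1268, 1043 and 1020 in T12, and 977.2, 654.5 and 1000 in WT. T12 lay above all WT libraries, though by little, and T34 overlapped WT. The log2 fold change was 0.21 in T34 (95% interval -0.20 to 0.61, limma adjusted p = 0.373) and 0.36 in T12 (95% interval -0.04 to 0.76, limma adjusted p = 0.138).

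**Figure D2:**
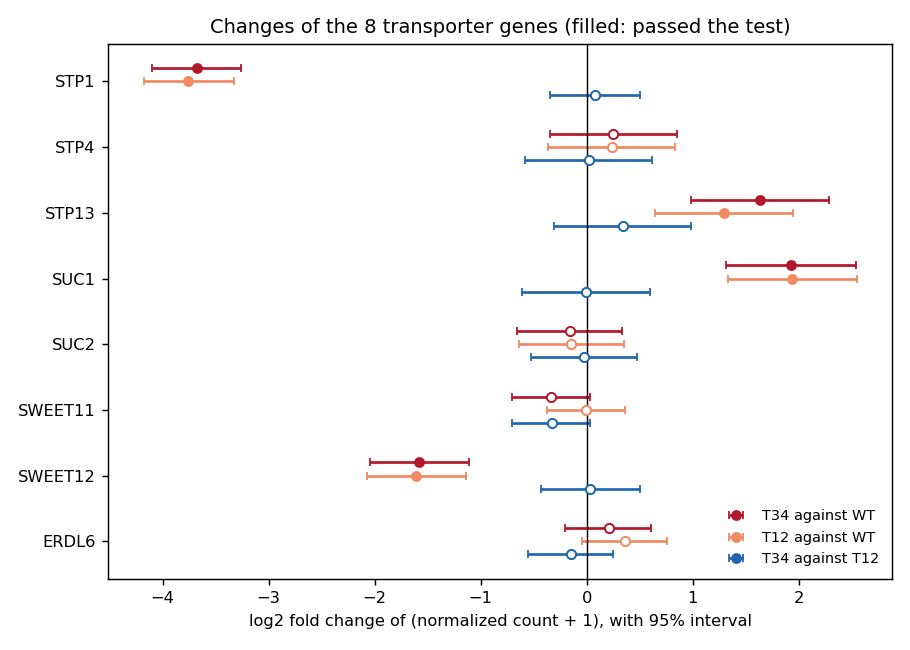
Log2 fold change of the 8 genes in T34 against WT, T12 against WT and T34 against T12, with 95% intervals; filled points passed limma's test at an adjusted p under 0.05. The 4 genes called lie at -3.68, 1.64, 1.93 and -1.58 in T34 against WT, and no gene was called between T34 and T12.

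T34 and T12 were compared directly, since the populations were ordered by severity. By limma's test 0 of the 8 genes differed, 0 at an unadjusted p under 0.05, and 0 with edgeR or DESeq2. Over all genes, 2.38% were called in this comparison, 0.858% higher and 1.52% lower. The log2 fold change of T34 over T12 was 0.08 for STP1 (95% interval -0.35 to 0.50), 0.34 for STP13 (95% interval -0.31 to 0.99), -0.01 for SUC1 (95% interval -0.61 to 0.60) and 0.03 for SWEET12 (95% interval -0.43 to 0.50). It was 0.02 for STP4, -0.02 for SUC2, -0.15 for ERDL6 and -0.33 for SWEET11 (95% interval -0.70 to 0.03). All 3 T34 libraries were below all 3 T12 libraries for SWEET11 alone of the 8, in a comparison where 33.0% of all tested genes did not overlap, 17.3% higher and 15.8% lower. Intervals this wide leave differences up to 0.99 on the log2 scale undetected.

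Levels between genes were compared per kb of transcript, as normalized counts divided by the length of the longest annotated transcript. In T34 the order was SUC1 at 611 ± 94.5, STP13 at 440 ± 107, SWEET11 at 434 ± 27.3, ERDL6 at 420 ± 49.7, SUC2 at 357 ± 41.2, STP4 at 298 ± 37.2, STP1 at 169 ± 17.1 and SWEET12 at 138 ± 15.6 normalized counts per kb (SD, n = 3). In T12, SUC1 also came first at 645 ± 276, then SWEET11 at 549 ± 73.6 and ERDL6 at 467 ± 57.6, and STP1 at 163 ± 34.3 and SWEET12 at 134 ± 2.70 came last. In WT, STP1 came first at 2193 ± 435, and SUC1 at 161 ± 30.0 and STP13 at 143 ± 44.8 came last. SWEET11 at 556 ± 116 was above SWEET12 at 424 ± 121 and SUC2 at 415 ± 140 in every WT library. SWEET12 and SUC2 in WT lay within each other's spread, as did STP13, SWEET11 and ERDL6 in T34.

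Within each library, the ratio of reads of 2 genes does not depend on the scaling between libraries. STP1 over STP4 was 0.582, 0.647 and 0.555 in T34, 0.409, 0.749 and 0.603 in T12, and 6.86, 8.85 and 12.3 in WT. SUC1 over SUC2 was 1.92, 1.82 and 1.79 in T34, 2.78, 1.67 and 1.31 in T12, and 0.408, 0.521 and 0.374 in WT. SWEET12 over SWEET11 was 0.349, 0.274 and 0.303 in T34, 0.278, 0.239 and 0.205 in T12, and 0.811, 0.635 and 0.748 in WT. For these 3 pairs, no mutant library overlapped a WT library. Each pair sets a called gene beside one that was not called, so the separation adds no support to the calls. STP13 over STP4 and STP1 over STP13 did not overlap either. SWEET11 over SUC2, a pair of genes not called, overlapped, at 0.700 to 1.16 in the mutant libraries and 0.819 to 1.08 in WT. With 3 libraries against 3 an exact permutation test cannot go below p = 0.1, so no test is given. A change in the ratio shows that the 2 genes changed unequally and not which of them changed.

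**Figure D3:**
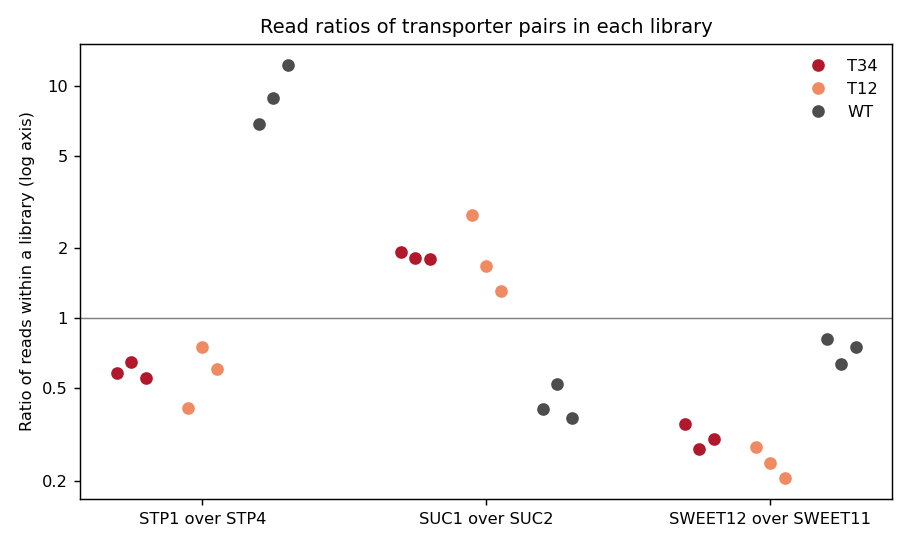
Reads of STP1 over STP4, SUC1 over SUC2 and SWEET12 over SWEET11 within each library (log axis); points are the libraries of T34, T12 and WT. STP1 over STP4 lies between 0.409 and 0.749 in the mutants and between 6.86 and 12.3 in WT.

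The make-up of each family differed between the mutants and WT. A share also moves when only other genes of the family change, and STP4, SUC2 and SWEET11 did not pass the test themselves. Per kb, STP1 took 13.1 ± 0.148% of the summed level of the 14 STP genes in T34, 14.0 ± 3.16% in T12 and 70.2 ± 4.27% in WT. STP13 took 33.6 ± 4.85% in T34, 29.9 ± 7.11% in T12 and 4.63 ± 1.52% in WT, and STP4 took 23.0 ± 1.56%, 26.2 ± 8.62% and 8.21 ± 1.89% in T34, T12 and WT. The sum over the STP genes was 1298 ± 139 normalized counts per kb in T34, 1167 ± 153 in T12 and 3116 ± 503 in WT (SD, n = 3). Among the 9 SUC genes, SUC1 took 39.1 ± 0.349% in T34, 40.9 ± 8.27% in T12 and 22 ± 0.508% in WT, and SUC2 took 22.9 ± 0.879% in T34, 24.1 ± 4.28% in T12 and 55.5 ± 8.07% in WT. The SUC sum was 1565 ± 241 in T34, 1534 ± 341 in T12 and 733 ± 150 in WT. Among the 17 SWEET genes, SWEET12 took 9.84 ± 1.21% in T34, 7.99 ± 0.604% in T12 and 32.1 ± 4.68% in WT, and SWEET11 took 31.0 ± 2.07%, 32.5 ± 3.03% and 42.5 ± 1.88% in T34, T12 and WT. The SWEET sum, 1401 ± 14.4 in T34, 1687 ± 118 in T12 and 1303 ± 218 in WT, moved less than the share of SWEET12.

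**Figure D4:**
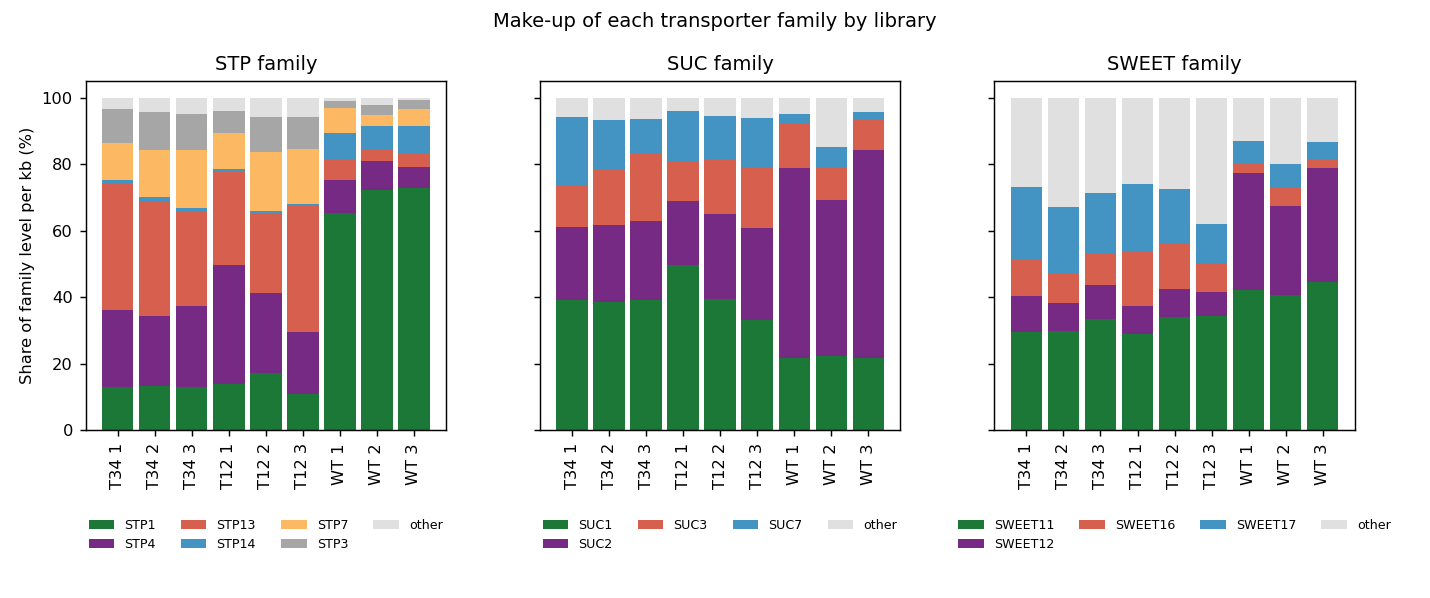
Share (%) of selected STP, SUC and SWEET genes in the summed level per kb of their family, with its remaining genes pooled as other, in each library of T34, T12 and WT. STP1 takes 65.2 to 72.9% of the STP level in WT libraries and 10.9 to 17.2% in mutant libraries, and SUC2 46.7 to 62.6% of the SUC level in WT libraries and 19.3 to 27.5% in mutant libraries. SUC2 itself did not pass the test in either population.

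Other genes of the same families were described from lists of 51 genes, of which 39 passed the filter on low values, so that the counts are descriptions. The filter asks for at least 10 normalized counts in at least 3 libraries. STP9, STP12, SUC5 and AT4G04760, all called higher, reached it only with the mutant libraries, so their rises were in part selected by the filter. By limma's test, 20 of the 39 were higher and 6 lower in T34 than in WT, and 21 higher and 5 lower in T12. Over all tested genes 25.2% and 20% were called higher and lower in T34, and 23.1% and 17.0% in T12. These shares are also the background for the counts of each list below, and no list was tested against them. Over the alternatives, 15 to 22 were higher and 5 to 8 lower in T34. In T12, 18 to 25 were higher and 5 to 6 lower. The alternatives with another filter or none did not test the same 39 genes, which can move these counts. Between T34 and T12, 0 were higher and 1 was lower (limma), with 2 higher and 5 lower at an unadjusted p under 0.05, and edgeR and DESeq2 each called 0 higher and 3 lower.

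Of 11 other STP genes, 7 were tested. STP14, a galactose transporter, had 31.63, 32.87 and 28.47 normalized counts in T34, 19.40, 20.52 and 14.58 in T12, and 468.6, 397.4 and 639.8 in WT. It fell by 3.95 on the log2 scale in T34 (limma adjusted p = 2.96e-06) and by 4.70 in T12 (limma adjusted p = 1.89e-06), as far as STP1 or further. STP9, a glucose transporter known from pollen, rose by 1.88 in T34 and 1.47 in T12, at 38.75 to 45.22 normalized counts in T34, 30.28 to 33.10 in T12 and 9.213 to 11.69 in WT. The WT values of STP9 rest on 15, 1 and 9 reads in replicates 1, 2 and 3. STP3 rose by 0.70 in T34, with 312.3, 298.1 and 271.3 normalized counts against 140.0, 187.0 and 221.8 in WT.

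Of 7 other SUC genes, 4 were tested, and 4 were called higher in T34 and 3 in T12, with 0 lower in either by limma, at an unadjusted p under 0.05, edgeR or DESeq2. SUC3, a widely expressed sucrose transporter, had 540.9, 620.1 and 650.6 normalized counts in T34, 547.8, 530.9 and 582.1 in T12, and 235.2, 140.2 and 195.0 in WT. It rose by 1.69 in T34 (limma adjusted p = 7.62e-05) and 1.57 in T12 (limma adjusted p = 0.000143). SUC7 rose by 3.25 in T34 and 3.18 in T12, but 6.86% of its 50-base windows also occur in other transcripts, mostly SUC8, so its counts are uncertain by that part. SUC8 itself had 0 to 4 reads in each library, and the part of the shared windows was not tested. SUC5 rose by 2.26 in T34 and 2.00 in T12, with 2 reads in WT replicate 2, without which the values were 2.91 in T34 and 2.65 in T12. Its T12 difference did not pass the test without WT replicate 3 (1.65, limma adjusted p = 0.0544) or without T12 replicate 1 (1.69, limma adjusted p = 0.0617).

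Of 15 other SWEET genes, 10 were tested, with 6 called higher in T34 and 7 in T12. None was called lower in either by limma, at an unadjusted p under 0.05, edgeR or DESeq2. SWEET16 and SWEET17, vacuolar fructose and glucose carriers, rose in both populations. SWEET17 had 396.2, 363.1 and 323.2 normalized counts in T34, 425.1, 336.0 and 274.2 in T12, and 111.8, 93.5 and 99.41 in WT, a rise of 1.82 in T34 and 1.74 in T12. SWEET16 had 231.7, 190.5 and 203.5 in T34, 419.4, 332.8 and 243.9 in T12, and 61.42, 93.5 and 61.18 in WT, a rise of 1.54 in T34 and 2.18 in T12. SWEET13 (2.05 in T34, 2.50 in T12) and SWEET15 (2.28 in T34, 1.93 in T12), both sucrose exporters, rose as well, at no more than 325.8 normalized counts in any library. That highest value was SWEET15 in T12 replicate 3, without which its T12 difference was 1.26 and still called. In WT replicate 2, SWEET13 and SWEET15 had 2 reads each.

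Of 18 other ERD6-like transporters, all 18 were tested, with 7 higher and 5 lower in T34 and 9 higher and 4 lower in T12. The background was 25.2% higher and 20% lower in T34, and 23.1% and 17.0% in T12. ESL1, a vacuolar hexose carrier known from stress responses, had 1981, 1770 and 1713 normalized counts in T34, 2272, 1833 and 2041 in T12, and 385.7, 374.0 and 307.2 in WT. It rose by 2.36 in T34 (limma adjusted p = 2.46e-06) and 2.52 in T12 (limma adjusted p = 2.06e-06), beside an ERDL6 that did not pass the test. AT3G05150 fell by 3.02 in T34 and 2.59 in T12, with 30.84, 23.16 and 27.63 normalized counts in T34, 35.95, 39.12 and 35.33 in T12, and 288.0, 128.6 and 309.7 in WT. ZIF2 was the gene called between T34 and T12, at 203 in T34 and 325 in T12 (-0.68, limma adjusted p = 0.0173). That call was lost in 5 fits that left out a library, T12 replicate 1, 2 or 3 or T34 replicate 1 or 2, with values of -0.69 to -0.63 and limma adjusted p = 0.058 to 0.0957.

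Of 13 vacuolar and plastid sugar transporters, all tested, 5 were higher and 3 lower in T34 and 3 higher and 1 lower in T12. Beside the background in T12, 23.1% higher and 17.0% lower, these T12 counts were not raised. In T34 the background was 25.2% higher and 20% lower. GPT2, the glucose-6-phosphate carrier of plastids, had 1090, 636.5 and 963.8 normalized counts in T34, 1618, 647.0 and 1305 in T12, and 6.756, 128.6 and 25.49 in WT. It rose by 4.87 in T34 and 5.22 in T12 on the log2 scale, with WT replicate 2 well above the other WT libraries on 11 reads. GPT2 reached the filter on low values only with the mutant libraries, so its rise was in part selected by the filter. GPT2 was still called, at 5.93 in T34 and 6.28 in T12 without WT replicate 2, and at 3.90 in T34 and 4.24 in T12 without WT replicate 1. TMT1, a vacuolar sugar importer, had 625.5, 696.3 and 649.8 in T34, 612.9, 691.9 and 658.4 in T12, and 1730, 1379 and 1368 in WT, and fell by 1.17 in T34 and 1.18 in T12. Of 20 enzymes of sucrose synthesis and cleavage, 18 were tested, with 10 higher in T34 and 7 in T12 by limma. By limma 0 were lower in T34 (1 at an unadjusted p under 0.05, 1 with edgeR and 1 with DESeq2), and 0 in T12 by any of these. CWINV1, a cell-wall invertase that supplies hexoses to STP transporters, had 2315, 1921 and 2289 normalized counts in T34, 3015, 2397 and 2325 in T12, and 898.5, 794.7 and 578.6 in WT, a rise of 1.54 in T34 and 1.78 in T12. SUS3, a sucrose synthase, rose by 2.19 in T34 and 1.20 in T12. Of 10 polyol and inositol transporters, 9 were in the tables and 7 were tested, with 3 higher and 1 lower in T34 and 1 higher in T12. INT1, an inositol exporter of the vacuole, rose by 0.68 in T34 and 0.44 in T12. The T12 call of INT1 was lost in 6 of 19 alternatives, at 0.29 to 0.44 with limma adjusted p = 0.0668 to 0.119, among them those without T12 replicate 2, T12 replicate 3 or WT replicate 1.

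**Figure D5:**
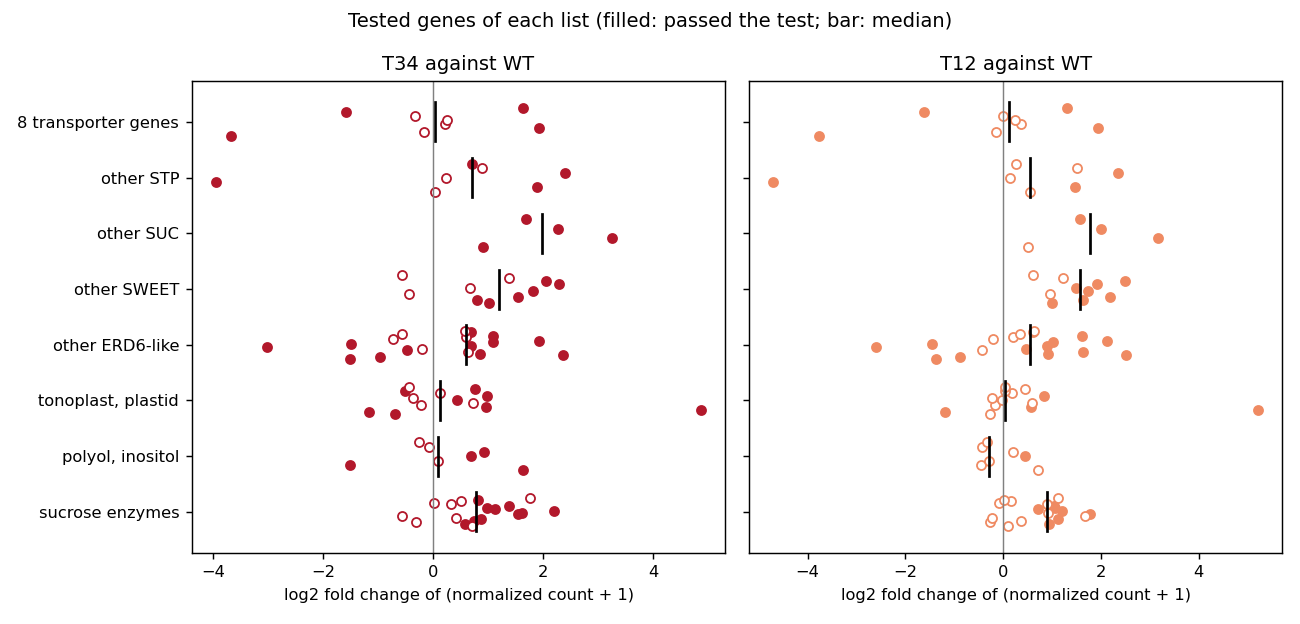
Log2 fold change of each tested gene in the transporter and enzyme lists, in T34 against WT and T12 against WT; filled points passed limma's test and bars are list medians. The median is 0.02 in T34 and 0.11 in T12 for the 8 transporter genes, and 1.98 in T34 and 1.78 in T12 for the other SUC genes.

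Markers of tissues that could differ in amount between the seedlings were summed in each library, and their part in the results was not tested. Counts of called markers stand beside a background of 25.2% higher and 20% lower in T34, and 23.1% and 17.0% in T12. The 13 phloem markers summed to 4424 to 4822 normalized counts in T34, 3367 to 3567 in T12 and 2887 to 3296 in WT, with 9 higher in T34 and 3 higher and 2 lower in T12. They include SEOR1 at 694.3, 579.0 and 595.3 in T34, 269.9, 333.4 and 337.0 in T12 and 303.4, 327.2 and 344.1 in WT. NEN4 was listed at 0 in at least 1 library. NAC086, among those called higher in T34, reached the filter on low values only with the mutant libraries. The phloem sum was higher in every T34 and every T12 library than in every WT library, in T12 by little (3367 against 3296). Of single tested genes, 30.9% lay above WT without overlap in T34 and 28.3% in T12, a share not computed for sums. The phloem markers did not move together in T12. There, CVP2 (-0.68) and SEOR2 (-0.37) were called lower, and CALS7 (0.83), BRX (0.82) and PP2-A1 (0.67) higher. Of the calls, BRX in T12 was lost without T12 replicate 1 (0.61, limma adjusted p = 0.0578), SEOR2 in T12 in 3 of 19 alternatives, among them those without T12 replicate 1 (-0.32) or 2 (-0.39), and OPS in T34 in 4, those without T34 replicate 1 or 2 or WT replicate 1 or 3 (limma adjusted p = 0.0548 to 0.0727). The 6 guard cell markers, 5 tested, summed to 129 to 147 in T34, 211 to 449 in T12 and 238 to 503 in WT, with FAMA and SPCH lower in T34 by limma. In T12, limma called 0, and 0 were higher and 1 lower at an unadjusted p under 0.05, 0 with edgeR and 1 lower with DESeq2. The guard cell sums of T34 lay below those of WT, and those of T12 overlapped WT. SPCH (-1.27) lost its call in 9 of 19 alternatives, at -1.44 to -0.83 with adjusted p = 0.0526 to 0.14, among them each fit without a T34 library, T12 replicate 2 or WT replicate 1 or 2, and MUTE was listed at 0 in at least 1 library. The 9 endodermis and root hair markers summed to 871 to 988 in T34, 849 to 1243 in T12 and 952 to 1489 in WT, with 5 lower in T34 and 4 in T12, all of them CASP genes, and the sums of both populations overlapped WT. CASP2 lost its call in T34 in 3 of 19 alternatives, those without T34 replicate 1 or 3 or WT replicate 1 (-1.28 to -0.96). In T12, CASP2 lost it in 9 (-1.23 to -0.66), among them those without T12 replicate 1 or 2, T34 replicate 2 or 3, or WT replicate 1 or 2. CASP5 lost it in T12 in 3, those without T12 replicate 1 or 2 or WT replicate 1 (-1.10 to -0.91). The 7 xylem markers summed to 1830 to 2039 in T34, 1867 to 2088 in T12 and 1737 to 2022 in WT, so that all 3 groups overlapped, with IRX1 and IRX3 higher in T34 and IRX1 in T12. With upper quartile or total nuclear read scaling these calls were lost, and 0 xylem markers were called higher in either population, while 2 were lower in T34 with the upper quartile and 1 with total nuclear reads. IRX1 also lost its call without T34 replicate 1 or 2 or WT replicate 3 in T34 (0.44 to 0.55), and without T12 replicate 1 or 3 or WT replicate 3 in T12 (0.46 to 0.53). IRX3 lost it without T34 replicate 1 or 2 (0.40 in both).

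The genes whose pattern was most like each of the 8 were found by the root mean square difference of centred log2 values over the 9 libraries. They were sought among 12891 genes with a mean of at least 100 normalized counts over the 9 libraries, organelle and ribosomal RNA genes left out. For STP1 they were PRR5 (0.166) and WRI4 (0.195), at 39.7 and 39.0 normalized counts in T34, 45.3 and 37.6 in T12 and 579 and 448 in WT. PRR5 and WRI4 reached the required mean only through their WT values, so the filter had a part in this choice. For SWEET12 they were CLV1 (0.149) and CYCT1;3 (0.15). For SUC1 they were PNC2 (0.159) and AT4G21570 (0.2), and for STP13 GSTF9 (0.214) and PCR2 (0.22). For ERDL6 they were AT3G22980 (0.049) and ELM1 (0.069), and for SWEET11 TBL6 (0.073) and HST (0.082). For SUC2 they were AT3G25120 (0.097) and RGA1 (0.098), and for STP4 AT5G16990 (0.156) and XIG (0.158). Without WT replicate 2, PRR5 stayed first for STP1, AT5G16990 for STP4, TBL6 for SWEET11 and AT3G22980 for ERDL6. WRI4 then ranked 3, XIG 2, HST 4 and ELM1 8 for the same genes. For SWEET12, CLV1 ranked 8 and CYCT1;3 ranked 13, and for SUC1, PNC2 ranked 4 and AT4G21570 ranked 18. GSTF9 ranked 8 and PCR2 13 for STP13, and AT3G25120 ranked 59 and RGA1 51 for SUC2.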

How the data were processed

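RNA abundance was measured in 9 libraries, 3 each of T34, T12 and WT. The submitters' processing notes name build TAIR10, DESeq2 1.22.2, featureCounts 1.6.2, HISAT2 2.1.0 and cutadapt 1.8.1. Strandedness of the counting, handling of multi-mapped reads and the gene annotation are not given in the sources used. The authors deposited 2 tables of 30271 genes, which per the file headers hold normalized counts per library (a signal: the count divided by a size factor), a mean, the authors' log2 fold changes and their errors, a score (the test statistic) and p-values. WT values were identical in both. Whole reads were recovered from the deposited normalized counts, with 100% of values whole at a tolerance of 0.01. Exact Poisson intervals cover counting error only.

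Limma-trend (limma 3.58.1, R 4.3.3) was run on log2(value + 1) over all 9 libraries, without covariates, for genes of at least 10 in at least 3 libraries, which understates the change of low genes. Calls used a Benjamini-Hochberg adjusted p under 0.05. The count tests on the recovered counts, edgeR 4.0.16 and DESeq2 1.42.0, called 5507 and 5294 genes higher and 4936 and 4453 lower in T34, and 5261 and 5038 higher and 4332 and 3877 lower in T12. Other alternatives were scaling, pseudocount (0.5, 10), filter, library weights, 2 groups only, and each library left out. Named genes were, per list and comparison, up to 3 rises and 3 falls among called genes with a mean of at least 20 and groups that do not overlap. SWEET16, SWEET17, INT1 and SUS3 are also given in the comparison where the rule did not name them, as are the values of the gene on the strand opposite STP1. ZIF2 and SEOR1 were named from T34 against T12. Genes, lists and rules were chosen with earlier results of these data known. Names, positions and upstream sequence came from RefSeq TAIR10.1, matched by locus, since the tables hold no coordinates. Motifs were searched on both strands.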

Additional observations from a re-analysis of the deposited data

How the results depend on the processing

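No paired analysis was possible because the labels give the libraries no replicate numbers shared across groups. SUC1 and STP13 remained called higher, and STP1 and SWEET12 lower, in T34 and T12 under all 19 alternatives. Library weights changed most: 5339 genes lower in T12 (3555 as reported), 4 of the 8 genes lower in T34 (2 as reported, adding SUC2 and SWEET11), and in T34 against T12 1 of the 8 higher (STP13, 0.66) and 1 lower (SWEET11, -0.34). Leaving out a library gave 2 to 4 of the 8 lower in T34, the 4 without WT replicate 2. For T34 against T12, 179 genes were higher and 318 lower as reported. EdgeR gave 615 and 753, DESeq2 690 and 918, library weights 3193 and 3104, and a fit of those 2 groups alone 988 and 1156. Without a filter 115 were higher, and leaving out a library gave 2 to 898 higher and 12 to 1000 lower. Some differences that did not pass the test changed sign. Against WT, leaving out a library gave a range of -0.11 to 0.46 for STP4, -0.42 to 0.09 for SUC2 and -0.17 to 0.14 for SWEET11 in T12, and of -0.43 to 0.07 for SUC2 in T34. For SWEET11 in T12, the values above 0 were 0.09, 0.01 and 0.14. In T34 against T12 the ranges were -0.11 to 0.19 for STP1, -0.21 to 0.37 for STP4, -0.24 to 0.32 for SUC1, -0.10 to 0.06 for SUC2 and -0.03 to 0.13 for SWEET12. Within these, STP4 also took -0.10 and -0.08, SUC1 0.01 and 0.10, and SWEET12 -0.01. Library weights gave -0.03 for STP1, 0.14 for SUC1, 0.02 for SUC2 and -0.03 for SWEET12. EdgeR and DESeq2 both gave -0.07 for STP4, and total nuclear reads as the scaling gave 0.01 for SUC1. The cause was not tested. The shallow WT replicate 2 limits what WT can show for genes of low expression.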
